A study of Mus musculus with 2 samples.

Results

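The mitochondrial ATP synthase genes described here are 10 genes of the nuclear genome that encode subunits of the enzyme: Atp5a1, Atp5b, Atp5c1, Atp5g1, Atp5g2, Atp5g3, Atp5h, Atp5j, Atp5k and Atp5l. They were taken by gene name, and all 10 were found among the 55536 Ensembl genes of the gene table, of which 22015 are nuclear protein-coding genes. The tissue was whole heart of B6CASTF1/J females, F1 hybrids between C57BL/6J and CAST/EiJ, aged 18 to 20 months. The assay was total RNA-seq with an RNA input of 300 ng, and the spike-in label names ribosome-reduced stranded libraries with ERCC control RNAs. There was 1 group with biological replicates 1 and 2 and no treated or control group, so levels are described and no condition is compared. The labels give the libraries separate biosamples but the same donor entry, so the spread between them may be technical.

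ATP synthase sits in the inner mitochondrial membrane and makes ATP as protons flow back into the matrix through it. Its F1 head, built from alternating alpha and beta subunits, holds the catalytic sites, and the gamma subunit turns inside it as the central stalk, driven by a rotating ring of c subunits in the membrane. A peripheral stalk, to which subunits d and F6 belong, keeps the head from turning with the rotor, and small membrane subunits such as e and g join enzymes into dimers that shape the cristae. Heart muscle is packed with mitochondria and depends on this enzyme for nearly all of its ATP.

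Atp5g1, Atp5g2 and Atp5g3 each encode the c subunit. Their precursors of 136, 146 and 141 residues end in 78 residues that are identical in all 3, after 58, 68 and 63 residues that are not all alike. Each precursor begins with a presequence that directs import and is then removed. The 234 coding bases of that shared stretch are shown from the GENCODE M21 transcripts, 5′ to 3′, because they show where a read can tell the genes apart. Capitals mark the 63 positions at which the 3 genes are not all alike.
Atp5g1: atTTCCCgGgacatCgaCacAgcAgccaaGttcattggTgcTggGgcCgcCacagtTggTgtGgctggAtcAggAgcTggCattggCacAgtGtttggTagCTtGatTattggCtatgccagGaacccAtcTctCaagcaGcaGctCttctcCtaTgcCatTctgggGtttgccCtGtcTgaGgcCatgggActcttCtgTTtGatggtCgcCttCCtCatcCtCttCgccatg
Atp5g2: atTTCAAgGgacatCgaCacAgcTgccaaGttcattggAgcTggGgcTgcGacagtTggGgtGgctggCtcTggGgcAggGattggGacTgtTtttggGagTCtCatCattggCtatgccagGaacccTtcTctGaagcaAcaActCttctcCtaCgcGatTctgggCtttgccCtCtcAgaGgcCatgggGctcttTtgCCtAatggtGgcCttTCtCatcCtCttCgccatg
Atp5g3: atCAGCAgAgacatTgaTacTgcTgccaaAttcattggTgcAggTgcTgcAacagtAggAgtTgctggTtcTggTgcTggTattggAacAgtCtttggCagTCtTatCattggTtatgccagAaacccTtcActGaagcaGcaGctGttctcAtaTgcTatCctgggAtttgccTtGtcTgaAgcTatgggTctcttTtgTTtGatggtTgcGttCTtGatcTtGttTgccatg

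Of the 63 variable positions, 55 were the third base of a codon, so the genes spell the same protein with different codons. Atp5g1 and Atp5g2 differed at 36 of the 234 bases, Atp5g1 and Atp5g3 at 50, and Atp5g2 and Atp5g3 at 53. No pair shared a word of 31 bases anywhere in its coding sequence. The longest stretch that was identical in all 3 had 8 bases.

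Levels are given in TPM, a length-corrected share of all RNA molecules in a library, from gene tables in the column layout of RSEM. A second quantification of the same reads, in the column layout of kallisto, was summed per gene and is given for each member, and for the enzyme's other subunit and assembly genes where it was 1.5-fold or more apart. Together the 10 genes summed to 11216 TPM in replicate 1 and 10858 TPM in replicate 2, a mean of 11037 ± 253 TPM (SD, n = 2). Their median was 786 ± 29.0 TPM. They made up 2.71% of the TPM of nuclear protein-coding genes in replicate 1 and again 2.71% in replicate 2. The kallisto-layout tables gave a sum of 14233 ± 91.3 TPM and a median of 1185 ± 39.8 TPM.

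The libraries held 35897521 and 36926429 expected counts, estimated reads in which a read that matches several genes is divided among them. All 5 heart muscle markers (Myh6, Myl2, Tnnt2, Tnni3, Actc1) were high, summing to 30665 and 29640 TPM, as the label heart requires. The 5 adipocyte markers (Adipoq, Plin1, Cfd, Cidea, Ucp1) were all higher in replicate 2, with sums of 38.8 and 298 TPM. The 3 erythroid markers (Hba-a1, Hbb-bs, Alas2) were all lower there, with sums of 16068 and 7566 TPM. Alb, a liver marker, and Myh4, a skeletal muscle marker, were at 0 TPM in both. In whole tissue, fewer cells of a type and less RNA per cell cannot be told apart.

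The beta subunit gene was the most abundant member. Atp5b, which encodes the subunit that carries the catalytic sites, had 3327 and 3360 TPM, a mean of 3343 ± 23.7 TPM, and ranked 13 among nuclear protein-coding genes. Its neighbours in level in the RSEM-layout tables were contractile and calcium-handling genes and a lipid carrier. Next above it were Tpm1 at 3889 ± 163 TPM and Tnnt2 at 3686 ± 50.01 TPM, and next below were Pln at 2786 ± 287 TPM and Fabp3 at 2317 ± 45.6 TPM. The values of Atp5b did not overlap those of any of these 4 genes. Atp5a1, which encodes the alpha subunit that alternates with beta in the head, had 1653 and 1667 TPM, a mean of 1660 ± 9.64 TPM and rank 22. It lay close to Slc25a4, the main ADP/ATP carrier of heart, at 1876 ± 3.52 TPM.

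Equal numbers of alpha and beta subunits, 3 of each, form the head, but their mRNAs were not equal. Per copy in the enzyme, Atp5a1 had a log2 ratio to Atp5b of -1.01 in both libraries, a mean of -1.01 ± 0.0018 on the log2(TPM + 0.1) scale. The kallisto-layout tables gave -0.92 and -0.87, with means of 1938 ± 102 TPM for Atp5a1 and 3592 ± 102 TPM for Atp5b. Atp5b exceeded Atp5a1 in each library and each table. Neither gene shared any word of 100 bases with another gene. About 71.6% of the Atp5b TPM was assigned to the protein-coding transcript Atp5b-201, and 15.2% and 12.7% to the short processed transcripts Atp5b-206 and Atp5b-207. Counting protein-coding transcripts alone, Atp5b had 2394 ± 27.5 TPM and Atp5a1 1638 ± 5.76 TPM, and the log2 ratio was -0.55 ± 0.011, or -0.54 ± 0.022 in the kallisto-layout tables. On the mouse genome build mm10, Atp5b spans bases 128083273 to 128090391 of chromosome 10 and Atp5a1 bases 77773729 to 77782869 of chromosome 18, both on the plus strand.

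**Figure D1:**
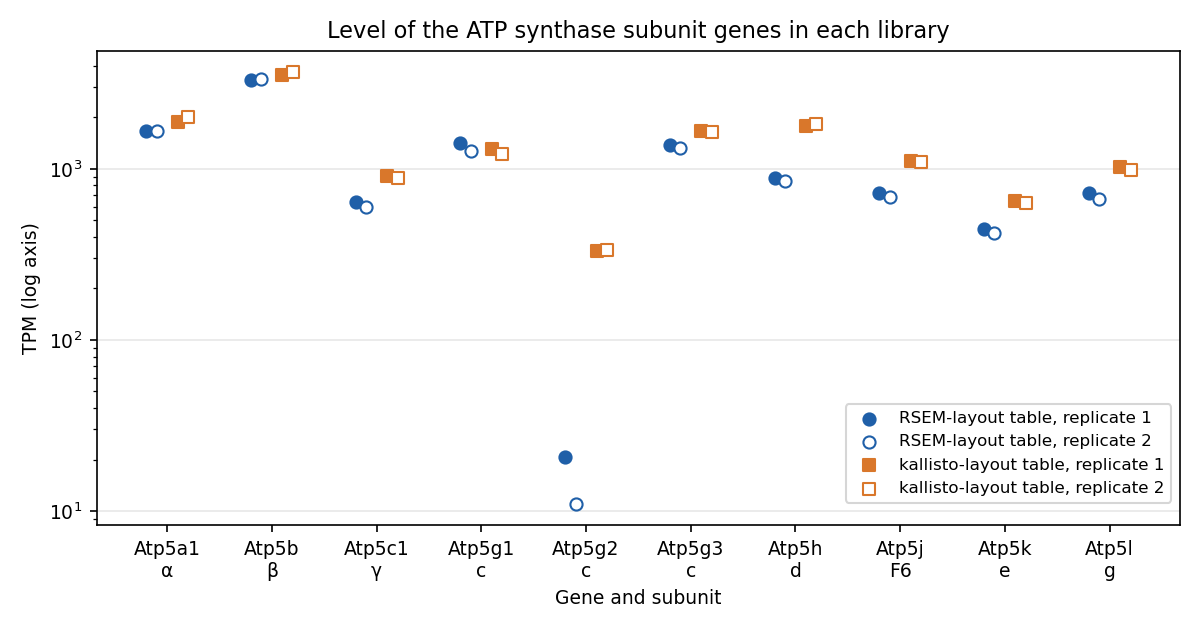
TPM of each of the 10 genes on a log axis, with the subunit under the gene name; circles are the RSEM-layout tables and squares the kallisto-layout tables, filled for replicate 1 and open for replicate 2. Replicates lie close together for 9 genes, while Atp5g2 differs between the libraries (20.6 and 11.0 TPM) and far more between the tables (15.8 against 333 TPM on average).

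The gamma subunit, the central stalk that couples ring rotation to catalysis, is encoded by Atp5c1. It had 638 and 599 TPM, a mean of 618 ± 27.7 TPM and rank 79, and 898 ± 21.9 TPM in the kallisto-layout tables. With 1 copy in the enzyme against 3 of beta, its per-copy log2 ratio to Atp5b was -0.85 ± 0.075, or -0.42 ± 0.076 in the kallisto-layout tables. Both of its values were below those of Atp5b per copy, and the gap was smaller in the second quantification.

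Atp5c1 is known for a muscle form of its mRNA in which a short exon before the last one is skipped. In the annotation that exon has 37 bases, at 10056770 to 10056806 of chromosome 2 on the minus strand of mm10. Transcript Atp5c1-201 lacks it and has 297 codons, and Atp5c1-203 holds it and has 298. The last 27 bases of each coding sequence, stop codon included, show the change at the C-terminus, with capitals for the bases that follow the last exon both forms share in their coding sequence.
Atp5c1-201: atcatctctggggctgctgctctGTAA
Atp5c1-203: atctctggggctgctgctctGGATTAA

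Nearly all Atp5c1 mRNA that reached the last exon lacked the short exon. Transcripts without it had 621 and 574 TPM, and transcripts with it 13.3 and 20.98 TPM. The share without it was therefore 97.9% in replicate 1 and 96.5% in replicate 2, a mean of 97.2% ± 1.02 (SD, n = 2). In the kallisto-layout tables the share was 97.9% and 95.6%. Transcripts with the exon were higher in replicate 2 in both quantifications, the library in which the 5 adipocyte markers were also higher, and the part of other cell types in this was not tested. The exon was chosen for description after the transcript shares had been seen. The 2 tables differed on another Atp5c1 transcript: Atp5c1-207, annotated as protein-coding but without the last exon, took 37.6% of the gene's TPM in the kallisto-layout tables and 0.045% in the RSEM-layout tables.

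Of the 3 genes of the c subunit, 2 carried nearly the whole pool in the RSEM-layout tables. Atp5g1 had 1406 and 1276 TPM, a mean of 1341 ± 92.2 TPM. Atp5g3 had 1387 and 1328 TPM, a mean of 1357 ± 41.7 TPM. The values of Atp5g1 and Atp5g3 overlapped, so their order, at ranks 27 and 26, was within the spread of the libraries. Atp5g2 had 20.6 and 11.0 TPM, a mean of 15.8 ± 6.76 TPM and rank 3601, far below the other 9 members in both libraries.

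As shares of the c subunit pool, Atp5g1 gave 49.98% and 48.8%, Atp5g3 49.3% and 50.8%, and Atp5g2 0.732% and 0.422%. The kallisto-layout tables placed Atp5g2 higher by 21.04-fold, at 331 and 334 TPM, a mean of 333 ± 2.27 TPM. Its share of the pool there was 10.2% ± 0.319, with 38.8% ± 1.17 for Atp5g1 and 50.9% ± 0.855 for Atp5g3. Atp5g2 was the smallest of the 3 in both quantifications and both libraries, but its share of the pool differed between them by far more than between the libraries.

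The distance between the tables moved with a processed pseudogene, a reverse-transcribed copy of an mRNA inserted elsewhere in the genome. Gm10175, annotated as a transcribed processed pseudogene, lies at 23946646 to 23947290 on the minus strand of chromosome 7. Its reference sequence is identical to Atp5g2-202 over all of its 645 bases. The copies of the other members described below are annotated as processed pseudogenes only. Gm10175 had 270 and 280 TPM in the RSEM-layout tables, from 4113 and 4492 expected counts, and 7.51e-07 and 10.7 TPM in the kallisto-layout tables. Atp5g2 itself had 362 and 204 expected counts. Adding the copy to the gene gave 290 and 291 TPM, a mean of 290 TPM, against the 333 TPM of the kallisto-layout tables. A second copy, Gm10231 on chromosome 17, had 0 counts in both tables and both libraries. Of all 100-base words of Atp5g2-202, 86.4% also occurred in another gene, so most reads of that length that match the reference could not be placed by sequence alone. Which locus the shared reads came from cannot be told apart with these tables.

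With such copies added, the shares of the c pool were 46.6% ± 0.872 for Atp5g1, 9.41% ± 0.396 for Atp5g2 and 44.0% ± 0.476 for Atp5g3. The pool itself summed to 2714 ± 141 TPM for the genes alone, 3089 ± 128 TPM with copies and 3252 ± 79.1 TPM in the kallisto-layout tables.

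**Figure D2:**
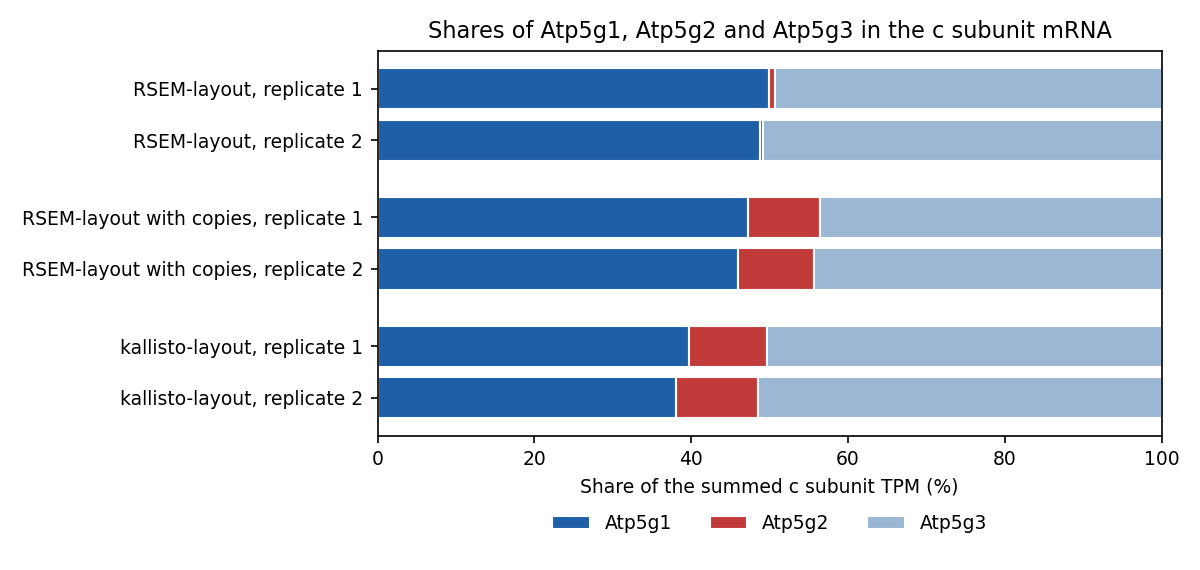
Shares of Atp5g1, Atp5g2 and Atp5g3 in the summed TPM of the 3 genes, in percent, 1 bar for each library under each of 3 quantifications. The Atp5g2 segment is 0.732% and 0.422% wide in the RSEM-layout tables, and about 9 to 10% wide once its copies are added or in the kallisto-layout tables.

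Atp5g1 has a copy of its own, Gm10039, at 100361716 to 100362126 on the minus strand of chromosome 11, the chromosome that also holds Atp5g1 at 96068852 to 96075670. The copy matched 410 of 411 aligned bases of Atp5g1-202, the exception being G385A, where positions count from 1 at the first base of the Atp5g1 start codon. The 57 coding bases around it are shown, with the position in capitals, because the aligned stretches differ nowhere else.
Atp5g1: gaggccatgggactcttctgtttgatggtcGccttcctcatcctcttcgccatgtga
Gm10039: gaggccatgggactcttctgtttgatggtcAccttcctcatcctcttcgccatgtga

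Gm10039 had 95.9 and 104 TPM in the RSEM-layout tables, and 0.683 and 0 TPM in the kallisto-layout tables. The kallisto-layout value of Atp5g1, 1263 ± 68.9 TPM, was not higher than that of the gene alone in the RSEM-layout tables. Atp5g3, at 73908447 to 73911326 of chromosome 2, shared no 31-base word with another gene, and its 1657 ± 12.5 TPM in the kallisto-layout tables was 1.22 times the RSEM-layout value. The assignment to transcripts differed more. Transcript Atp5g1-202 took 98.1% of Atp5g1 in the RSEM-layout tables and 0% in the kallisto-layout tables, which placed 99.8% on Atp5g1-203. Atp5g3-201 took 77.4% and 6.11e-05%, while Atp5g3-202 took 22.3% and 91.0%.

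The peripheral stalk genes followed. Atp5h, which encodes subunit d, had 887 and 844 TPM, a mean of 866 ± 30.5 TPM and rank 47. Atp5j, which encodes coupling factor 6 (F6), had 726 and 687 TPM, a mean of 707 ± 27.6 TPM and rank 65. In the kallisto-layout tables Atp5h had 1780 and 1826 TPM, 2.08 times the RSEM-layout mean, and Atp5j 1115 and 1099 TPM, 1.57 times. For both genes the values of the tables did not overlap in either library.

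Atp5h also has a processed copy. Gm10250, at 5120654 to 5121135 on the minus strand of chromosome 15, matched 480 bases of Atp5h-201 with 2 mismatches and 3 gap bases, and had 286 and 259 TPM in the RSEM-layout tables and 0.264 and 0.263 TPM in the kallisto-layout tables. Atp5h and its copy together reached 1138 ± 50.1 TPM, and the kallisto-layout mean remained 1.58 times as high. In estimated counts per library total, Atp5h was 1.15 times and Atp5j 1.07 times as high in the kallisto-layout as in the RSEM-layout tables, less than their ratios in TPM. Counts are not divided by length. The effective length, by which TPM is divided, was 99 nt below the annotated length in the RSEM-layout tables. In the kallisto-layout tables it was 325 or 322 nt below it for longer transcripts, and less far below it for transcripts near that length or shorter.

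The tables also divided Atp5j among its transcripts differently. Atp5j-208, a retained-intron transcript of 526 nt, took 93.4% ± 1.00 of the gene in the RSEM-layout tables, where the 4 protein-coding transcripts together took 5.60%. The kallisto-layout tables gave it 18.9% ± 2.70 and the protein-coding transcripts 79.8%, led by Atp5j-203 with 50.1%. For Atp5h, the protein-coding Atp5h-201 took 80.1% and 0.196%, and the kallisto-layout tables placed 40.9% on the processed transcript Atp5h-207. For these 2 genes the transcript shares differed between the tables by far more than between the libraries.

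The membrane subunits e and g were among the lower members. Atp5k, which encodes subunit e, had 446 and 422 TPM, a mean of 434 ± 17.3 TPM and rank 124. Atp5l, which encodes subunit g, had 725 and 664 TPM, a mean of 695 ± 42.7 TPM and rank 66. The range of Atp5l overlapped that of Atp5j, and both stood above the 599 to 638 TPM of Atp5c1. The kallisto-layout tables gave 640 ± 10.8 TPM for Atp5k and 1003 ± 22.4 TPM for Atp5l.

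Atp5l had 8 pseudogene copies by the rule of 100 or more shared 31-base words. One of them, Gm10221 at 24581554 to 24581862 on the minus strand of chromosome 5, is identical over its whole 309 bases and had 270 and 300 TPM in the RSEM-layout tables and 0 TPM in the kallisto-layout tables. Atp5l with its copies had 987 ± 19.2 TPM, which differed from the kallisto-layout mean by less than the spread between libraries. The likeness did not hold in counts. Atp5l had 7966 and 7882 estimated counts in the kallisto-layout tables. The gene alone had 9023 and 8715 expected counts in the RSEM-layout tables, and Gm10221 a further 1581 and 1853. Atp5k had no copy by this rule. In the kallisto-layout tables a retained-intron transcript took 53.4% of Atp5l (Atp5l-202) and 42.5% of Atp5k (Atp5k-203), against 0.045% and 1.89% in the RSEM-layout tables.

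**Figure D3:**
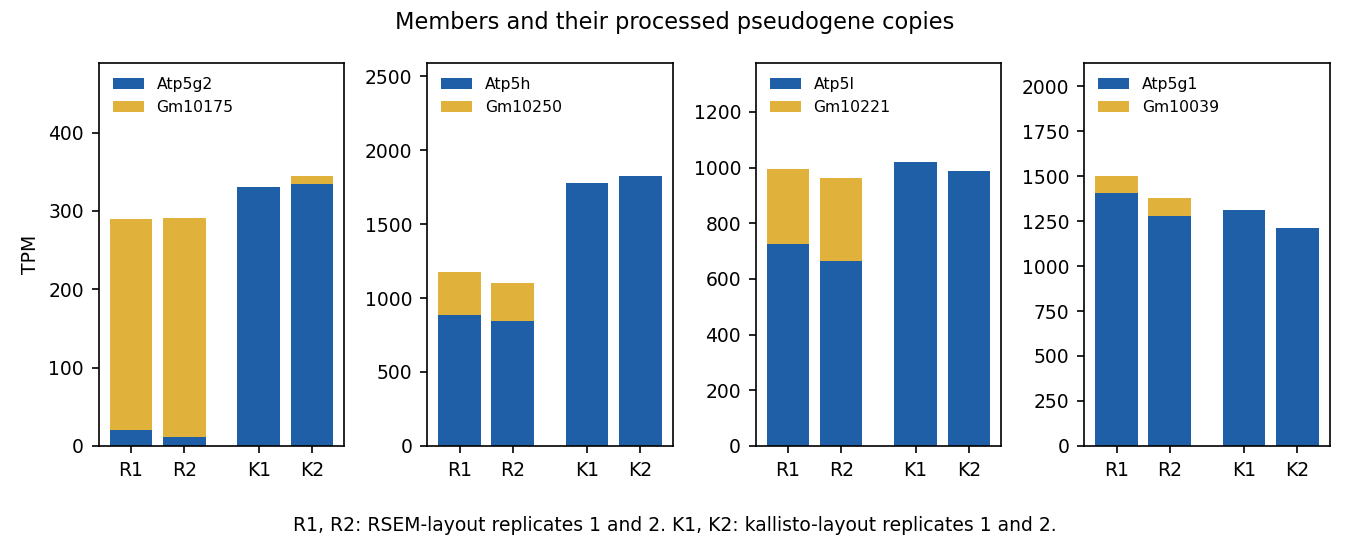
Stacked TPM of 4 genes (blue) and their main processed pseudogene copy (yellow), each panel with its own axis from 0, for the RSEM-layout (R) and kallisto-layout (K) tables of replicates 1 and 2. The copies hold 270 and 280 TPM beside Atp5g2, 286 and 259 beside Atp5h, 270 and 300 beside Atp5l and 95.9 and 104 beside Atp5g1 in the RSEM-layout tables, and at most 10.7 TPM in the kallisto-layout tables.

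Across the 10 genes, 3 (Atp5g2, Atp5h and Atp5j) were 1.5-fold or more higher in the kallisto-layout tables, beside 9.67% of the 12510 genes with a mean of 1 TPM or more. Among nuclear protein-coding genes with an effective length under 700 nt the share was 24.4%, and the 3 c subunit genes, Atp5h, Atp5j, Atp5k and Atp5l all lay under that length. In counts per library total only Atp5g2 was 1.5-fold or more higher, at 14.4 times, beside 0.991% of the 12510 genes, while the other 9 members lay between 0.739 and 1.15 times.

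Set against the make-up of the enzyme, the mRNA levels were uneven. The enzyme has 3 alpha, 3 beta and 8 c subunits, and 1 each of gamma, d, F6, e and g. TPM divided by that number was 1114 ± 7.88 for Atp5b, 866 for Atp5h, 707 for Atp5j, 695 for Atp5l, 618 for Atp5c1, 553 ± 3.21 for Atp5a1, 434 for Atp5k and 339 ± 17.6 for the summed Atp5g genes. Of neighbours in this order, only Atp5j and Atp5l overlapped between the libraries. The highest was 3.28 times the lowest, whereas single-gene TPM ran from 15.8 for Atp5g2 to 3343 for Atp5b. With protein-coding transcripts alone the order changed: Atp5j was lowest, at 39.4 TPM per copy, and Atp5b, at 798, was 20.3 times as high.

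Over all annotated transcripts, the c subunit had the least mRNA per copy in the RSEM-layout tables, with copies added and in the kallisto-layout tables. Its log2 ratio to Atp5b was -1.72 ± 0.085 in the RSEM-layout tables, -1.53 ± 0.070 with copies and -1.56 ± 0.076 in the kallisto-layout tables. With protein-coding transcripts alone it was -1.24 ± 0.091 and -1.18 ± 0.098 in the RSEM-layout and kallisto-layout tables. Of the members, Atp5j in the former and Atp5k in the latter were then lower than the c sum. Atp5k was at 368 TPM per copy there, against 388 for the c sum. Outside the members, Atp5f1 (b, 1 copy) was also lower than the c sum in both, at 239 and 316 TPM per copy. The top of the order was less settled. Atp5h lay below Atp5b in the RSEM-layout tables, at -0.36 ± 0.061, above it in the kallisto-layout tables, at 0.59 ± 0.015, and on either side of it with its copy added, at 0.082 and -0.022. The other single genes among the members lay below Atp5b under these 3. In the RSEM-layout and kallisto-layout tables, Atp5j was at -0.66 and -0.11, Atp5l at -0.68 and -0.25, and Atp5k at -1.36 and -0.90. In the protein-coding transcripts of the kallisto-layout tables, Atp5c1 and Atp5j lay on either side of Atp5b in the libraries, with means of 0.030 and 0.0069. The Atp5c1 value includes 347 and 329 TPM of Atp5c1-207, which lacks the last exon. Atp5c1-201 had 503 and 486 TPM there, below the 852 and 907 TPM per copy of Atp5b.

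**Figure D4:**
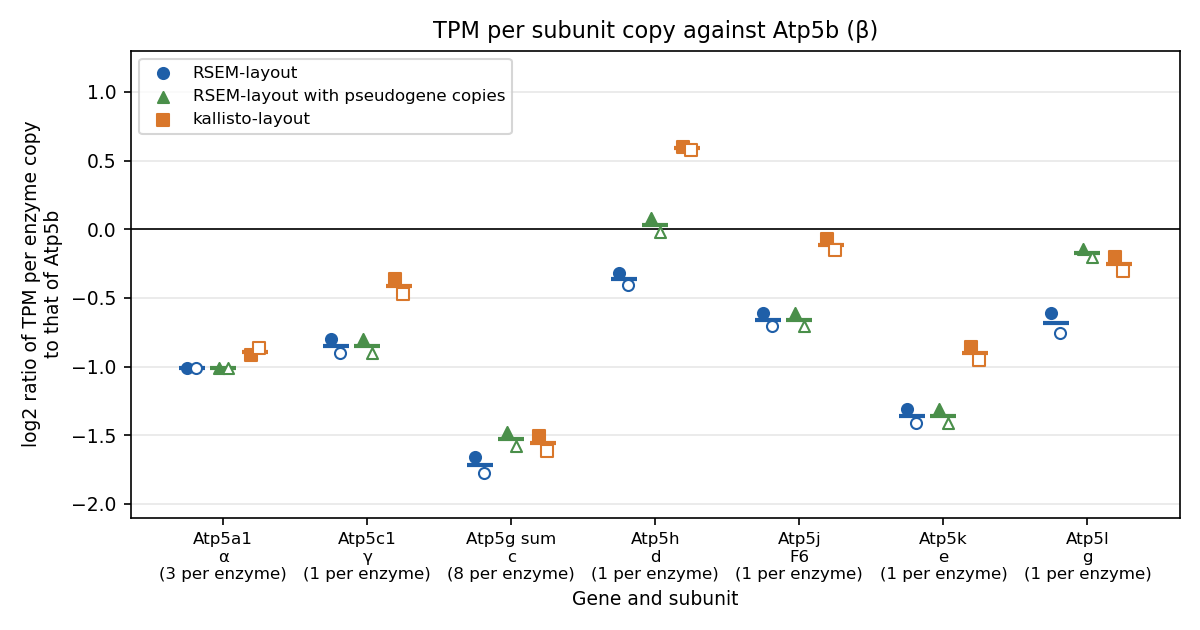
Log2 ratio of TPM per enzyme copy to that of Atp5b (line at 0), for 6 single genes and the summed Atp5g genes; the points are replicate 1 (filled) and replicate 2 (open), short lines are means, and colours are the 3 quantifications. Over all annotated transcripts the c subunit sum is lowest under each (-1.72, -1.53 and -1.56), and Atp5h changes side (-0.36, 0.03 and 0.59).

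The other genes of the enzyme lay in the same range. The 7 further nuclear subunit genes had 431 ± 6.68 TPM for Atp5d (delta), 675 ± 29.3 for Atp5e (epsilon), 477 ± 1.06 for Atp5f1 (b), 432 ± 2.62 for Atp5j2 (f), 881 ± 20.3 for Atp5o (the oligomycin sensitivity subunit that ties the stalk to the head), 917 ± 30.8 for Usmg5 and 521 ± 10.4 for Atp5mpl, both small membrane proteins of the complex. Of these, 3 were 1.5-fold or more apart from those values in the second quantification: Atp5e at 1722 TPM, Atp5j2 at 876 TPM and Usmg5 at 563 TPM. All 17 nuclear subunit genes together summed to 15370 ± 352 TPM. Delta and epsilon sit on the central stalk with gamma, and Atp5d stood below Atp5c1 and Atp5e above it in both quantifications, without overlap between the libraries.

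The 2 subunits encoded in mitochondrial DNA were far higher. mt-Atp6, the subunit a beside the ring, had 21039 and 18916 TPM, a mean of 19977 ± 1502 TPM. Its gene-level log2 ratio to Atp5b, not divided by enzyme copies, was 2.58 ± 0.119. The kallisto-layout tables gave it 34377 ± 701 TPM and a gene-level ratio of 3.26. Per copy, the log2 ratios were 4.16 and 4.84 in the RSEM-layout and kallisto-layout tables. mt-Atp8 had 5891 and 6014 TPM and is listed at 0 in both kallisto-layout tables. It spans bases 7766 to 7969 of the mitochondrial genome and overlaps mt-Atp6 only from base 7927. That span is shorter than the 325 or 322 nt given above for longer transcripts of the kallisto-layout tables. The cause of the 0 was not tested.

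Inhibitor and assembly genes were all lower than the members other than Atp5g2. Atpif1, the inhibitor that blocks ATP hydrolysis when the proton gradient fails, had 128 ± 2.31 TPM. Atpaf1 and Atpaf2, chaperones for the beta and alpha subunits, had 40.8 ± 0.290 and 16.7 ± 3.43 TPM. Tmem70 and Tmem242, which help to assemble the c ring, had 46.3 ± 1.21 and 67.3 ± 0.813 TPM, Fmc1, a partner in F1 assembly, 92.7 ± 0.523 TPM, and Atp5s, coupling factor B, 15.4 ± 0.509 TPM. The kallisto-layout tables gave 75.4 TPM for Atpaf1 and 71.0 TPM for Tmem70. Of the carriers that supply the enzyme, the phosphate carrier Slc25a3 had 1058 ± 42.7 TPM, and the ADP/ATP carriers Slc25a4 and Slc25a5 had 1876 ± 3.52 and 158 ± 20.0 TPM. The median of the 10 members, 786 ± 29.0 TPM, lay between those of 9 complex III genes, 632 ± 27.3 TPM, and 10 complex IV genes, 1091 ± 21.4 TPM.

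Between the libraries, the 10 members lay on both sides of a log2 ratio of 0 in the RSEM-layout tables. Atp5a1 and Atp5b were slightly higher in replicate 2, by a log2 ratio of 0.012 and 0.014, and the other 8 were lower, by -0.06 for Atp5g3 to -0.14 for Atp5g1 and -0.89 for Atp5g2. The median of the 10 was -0.081, against 0.023 for the 12510 genes with a mean of 1 TPM or more, of which 45.7% were lower in replicate 2. Scaled to nuclear protein-coding genes the median was -0.034 and 8 were still lower. In the kallisto-layout tables Atp5a1, Atp5b, Atp5g2 and Atp5h were higher in replicate 2 and the other 6 lower. Of the 7 other nuclear subunit genes, 6 were lower and Atp5f1 was higher, with a median of -0.041. Scaled to nuclear protein-coding genes, 3 of those 7 were lower and their median was 0.0059. Before scaling, the 3 genes higher in replicate 2 (Atp5a1, Atp5b and Atp5f1) had the longest effective lengths of the 17 nuclear subunit genes. These were 2352, 1389 and 1345 nt in replicate 1, with Atp5c1 next at 962 nt. Among nuclear protein-coding genes with a mean of 1 TPM or more, those with an effective length under 700 nt had a median log2 ratio of 0.033. Those of any length had a median of 0.021. The shares lower in replicate 2 were 41.3% and 45.8% in the same order. The part of length in the ratios of the subunit genes was not tested.

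Only Atp5g2 was 1.5-fold or more apart between the libraries, 1 of 10 members beside 10.8% of the 12510 genes. In counts per library total (CPM) its ratio of replicate 2 to replicate 1 was 0.548, with a 95% exact binomial interval of 0.459 to 0.652. That interval covers counting error only and not the way shared reads were divided. The RSEM-layout tables also hold an interval for the TPM of Atp5g2. It was 14.4 to 29.8 TPM in replicate 1 and 6.07 to 17.4 TPM in replicate 2, so the libraries overlapped. The Atp5g2 copy Gm10175 had 4113 and 4492 expected counts, so gene and copy summed to 290 and 291 TPM. In the kallisto-layout tables the log2 ratio of Atp5g2 was 0.014. For Atp5b the ratio was 1.04 (1.03 to 1.05), for Atp5a1 1.03 (1.02 to 1.04) and for Atp5g1 0.930 (0.912 to 0.949). The intervals of Atp5h, Atp5j and Atp5k included 1. With 1 library on each side these ratios compare libraries and no condition, and the part of the higher adipocyte and lower erythroid markers of replicate 2 in them was not tested.

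**Figure D5:**
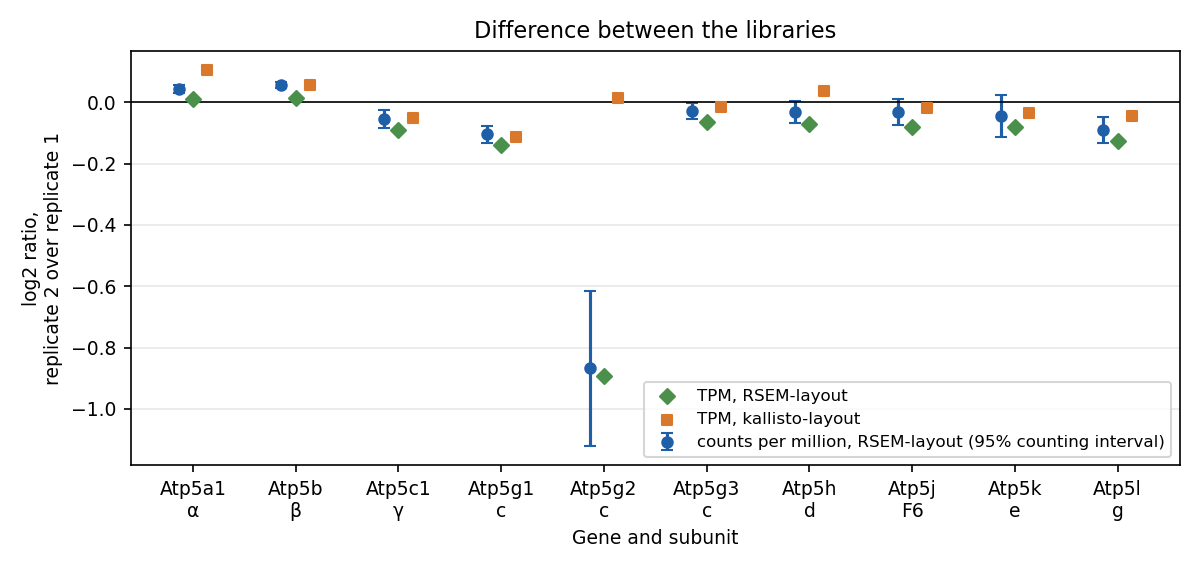
Log2 ratio of replicate 2 to replicate 1 for each gene: circles are CPM from the RSEM-layout tables with 95% counting intervals, diamonds TPM from the same tables and squares TPM from the kallisto-layout tables. Atp5g2 stands apart in the RSEM-layout tables (-0.89 in TPM) and not in the kallisto-layout tables (0.014), and the other 9 lie between -0.14 and 0.11.

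Several of the genes start head to head with another gene. Within 1000 nt on the opposite strand, the nearest start belonged to Haus1 for Atp5a1 (-157 nt, negative where the genes overlap), Kin for Atp5c1 (83 nt), Kctd2 for Atp5h (166 nt) and Gabpa for Atp5j (-700 nt). The opposite genes were much lower than the members. Haus1 had 5.66 and 4.68 TPM, Kin 3.36 and 3.66 TPM, Kctd2 13.3 and 11.7 TPM, and Gabpa, which encodes a subunit of an ETS-family factor known to act on genes of the respiratory chain, 19.0 and 17.3 TPM. Whether the counting used strand is not given in the sources used here. Reads of overlapping ends could be split between such pairs.

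Promoter windows of 250 bases before to 50 after the start, from RefSeq on GRCm38.p6, were found for 9 of the 10 members, Atp5a1 being unmatched. Short motifs were searched on both strands as exact letters. CCGGAAG, a core of ETS and GABP sites, occurred in the windows of 4 members (Atp5h, Atp5j, Atp5k, Atp5l) and of 9.93% of 27025 genes. GCATGCGC, a core of NRF1 sites, occurred in 3 (Atp5g2, Atp5k, Atp5l) and in 3.05% of genes. AAGATGGC, a YY1 core, occurred in Atp5j alone of the members and in 3.19% of genes, TCAAGGTCA, a site for estrogen-related receptors, in Atp5g3 alone and in 0.466% of genes, and TATAAA in Atp5l alone and in 15.7% of genes. These are matches of letters in a window and no measure of binding.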

How the data were processed

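Total RNA-seq of 2 heart libraries was analysed from 3 tables each. Per the deposited readme, all refer to mm10 and GENCODE M21, with no program or version stated in the sources used here. The expected counts, the isoform percent and the TPM deposited in the RSEM-layout tables come from transcriptome alignments. The estimated counts and TPM deposited in the kallisto-layout table come from the reads and an index, and were summed here per gene. TPM is scaled over all rows, spike-ins and mitochondrial genes included.

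Means, SDs, shares and ratios on the log2(TPM + 0.1) scale were computed in pandas 2.3.3. With 1 group no test was run. Ratios between libraries carry exact binomial 95% intervals from scipy 1.17.1 on expected counts, which cover counting error only. The calculation was tested on simulated data. A count of 0 allows up to 3 counts, 0.0836 and 0.0812 CPM at these depths. Alternatives used edgeR 4.0.16 (TMM) and DESeq2 1.42.0 (size factors) on expected counts rounded to whole numbers.

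A copy is an annotated pseudogene that shares 100 or more 31-base words with a protein-coding transcript of the gene. Copies were aligned with Biopython 1.88. All sequences compared are reference sequences, and the alleles of the CAST/EiJ parent were not examined. Background shares cover genes whose mean TPM was at least 1. All 10 members were described, with the enzyme's other genes and neighbours of Atp5b in level. Transcripts and copies of the members were described in part, and not every leading transcript or copy was named. The Atp5c1 copy Gm8722, at 0.15 and 0.1 TPM in the RSEM-layout tables, was not described further. Members and lists were chosen with earlier results of these data known. Proteins of the c subunit genes were to be shown, but coding bases were used instead.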

Additional observations from a re-analysis of the deposited data

How the results depend on the processing

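Leaving out either library kept every value within 1 SD, which holds by construction with 2 libraries, and left the number of genes 1.5-fold higher in the kallisto-layout tables at 3. No paired analysis was possible because there is 1 group. Adding copies, using counts per library total to compare the tables, and restricting the ratios per copy to protein-coding transcripts, were chosen after seeing the data. The summed TPM of the 10 genes was 14233 in the kallisto-layout tables, 27142 when scaled to nuclear protein-coding genes and 11977 with copies, and their median was 1185, 1933 and 1063 in the same order. The share of Atp5g1 in the c pool was 38.8% in the kallisto-layout tables, 46.6% with copies and 44.5% in expected counts, that of Atp5g2 10.2% and 9.41% in the first 2 of these, and that of Atp5g3 44.0% with copies and 54.8% in expected counts. The log2 ratio per copy to Atp5b was -0.89 for Atp5a1 in the kallisto-layout tables, -1.56 there and -1.53 with copies for the Atp5g sum, and it turned for Atp5h to 0.59 and 0.030. In protein-coding transcripts alone it was -0.55 for Atp5a1 and -1.24 for the Atp5g sum in the RSEM-layout tables. In the kallisto-layout tables these were -0.54 and -1.18, and the ratio turned for Atp5j to 0.0069. It also turned there for Atp5c1 to 0.030, with transcripts that lack the last exon included. The TPM of Atp5j in protein-coding transcripts was 39.4. The gene-level log2 ratio of mt-Atp6 to Atp5b was 3.26 in the kallisto-layout tables. The number of genes 1.5-fold apart between the libraries fell from 1 to 0 in the kallisto-layout tables and with copies, and that between the tables from 3 to 1 in counts per library total. The cause of these differences was not tested, except that scaling to protein-coding genes raises every TPM by its construction and adding copies adds their TPM. The posterior mean TPM, TMM, DESeq2 size factors, a pseudocount of 1 and no filter on low values moved no summary value by more than the spread and no count by more than 1.5 times, the posterior mean giving 4 genes apart between the tables. For single genes, the posterior mean moved Atp5a1 from 1660 to 1623 TPM and Atp5b from 3343 to 3268 TPM. Both moves were larger than the SD between the libraries. Atp5g2 had the fewest counts of the members, 362 and 204, and so the widest counting interval.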
